A study of Arabidopsis thaliana with 6 samples.

Results

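Arabidopsis roots take up iron by reduction. The soil iron is solubilised by proton pumping and secreted coumarins, the plasma membrane reductase FRO2 reduces ferric to ferrous iron, and the transporter IRT1 carries ferrous iron into epidermal cells. FIT, a basic helix-loop-helix (bHLH) transcription factor, is needed for full transcription of both, and pairs with a bHLH of subgroup Ib, BHLH38, BHLH39, BHLH100 or BHLH101. The Ib genes are themselves strongly induced when plants are short of iron. Nicotianamine synthases, here NAS1, NAS2 and NAS4, make nicotianamine, the chelator that keeps iron and other metals soluble inside the plant. Described here are these 10 genes, taken by their listed identifiers from 28775 features, and all 10 were found in all 6 libraries.

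The libraries held polyadenylated RNA of the accessions Can-0 and Col-0. Root came from plants of 10 days on plates, floral bud from stage 12 flowers on soil, and seedling from plants of 11 days on soil. The labels name no transgene, mutation or treatment, and all plants grew with 16 hours of light and 8 hours of dark at 20 C. No label gives the iron supply of soil or plates. Each accession and tissue had 1 library, so the groups were Can-0 and Col-0 root, Can-0 and Col-0 floral bud, and Can-0 and Col-0 seedling, without any replicate. Both root libraries came from run 40, both seedling libraries from run 33, and the bud libraries from run 35 for Can-0 and run 36 for Col-0. The Can-0 and Col-0 libraries were on lanes 2 and 3 in root and on lanes 1 and 2 in seedling. Tissue cannot be told apart from run, nor root from growth on plates. Within a tissue, accession cannot be told apart from lane in root and seedling, nor from run in bud. In bulk tissue, fewer cells of a type and less RNA per cell cannot be told apart either.

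Values are RPKM, reads per kilobase of gene model and per 1e6 mapped reads, deposited by the authors, and are levels per length. The steps between small values put the depth at 21.6 to 22.7 (in units of 1e6 mapped reads) per library. So 1 read in 1 kb was worth 0.0440 to 0.0462 RPKM. At these depths 44.1% to 56.8% of the small values lay within 0.05 of a whole read. Read numbers and floors are therefore approximate. The 7 root markers, genes of root hairs and the Casparian strip, summed to 170.2 and 209 RPKM in Can-0 and Col-0 root, 0.849 and 0.995 in bud and 0.332 and 0.307 in seedling. The 5 photosynthesis markers summed to 22.8 and 54.5 RPKM in Can-0 and Col-0 root, 4106 and 4958 in bud and 15016 and 19063 in seedling. The 6 floral organ and pollen markers summed to 1166 and 922 RPKM in bud and to at most 2.38 elsewhere. A pair of them, ATA1 and AT5G07230, was listed at 0 in every library, bud included. The sums of root, photosynthesis and floral markers were thus highest in root, seedling and bud. Root marker RNA was nearly absent from the seedling libraries. Root minus seedling therefore compares root with libraries almost free of that RNA, and not with seedlings that include a measurable root part.

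The Ib genes lie at 3 places in the genome, and the bases before them are shown because these genes were at their highest in 1 tissue together, with BHLH101 in Col-0 as the exception. BHLH38 (AT3G56970, chr3:21084035-21085245) and BHLH39 (AT3G56980, chr3:21086390-21087710) are neighbours on the minus strand, 1144 bases apart. BHLH100 (AT2G41240) is at chr2:17198037-17199454 and BHLH101 (AT5G04150) at chr5:1138410-1139633, also on the minus strand. Positions and sequences are those of RefSeq on build TAIR10.1, and no Can-0 sequence was examined. Each window holds the 250 bases before the annotated start, 5′ to 3′ on the gene's strand. The windows are chr3:21085246-21085495 for BHLH38, chr3:21087711-21087960 for BHLH39, chr2:17199455-17199704 for BHLH100 and chr5:1139634-1139883 for BHLH101. Capitals mark the E-box CANNTG, the core that bHLH proteins bind, which reads the same on both strands and includes the G-box CACGTG.
BHLH38: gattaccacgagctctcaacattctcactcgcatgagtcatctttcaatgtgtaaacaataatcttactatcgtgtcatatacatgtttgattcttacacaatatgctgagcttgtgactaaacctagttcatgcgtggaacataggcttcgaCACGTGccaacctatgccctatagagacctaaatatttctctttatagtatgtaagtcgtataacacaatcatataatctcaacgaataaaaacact
BHLH39: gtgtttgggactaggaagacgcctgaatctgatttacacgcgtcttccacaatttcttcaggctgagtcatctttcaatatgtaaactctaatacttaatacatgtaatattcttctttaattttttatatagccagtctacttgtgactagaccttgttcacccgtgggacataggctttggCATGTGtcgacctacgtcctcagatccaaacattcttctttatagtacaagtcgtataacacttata
BHLH100: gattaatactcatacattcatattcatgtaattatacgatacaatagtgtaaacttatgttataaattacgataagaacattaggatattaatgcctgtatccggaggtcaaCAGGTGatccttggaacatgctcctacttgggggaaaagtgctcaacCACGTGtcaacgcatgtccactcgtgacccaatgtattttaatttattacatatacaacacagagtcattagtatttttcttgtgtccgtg
BHLH101: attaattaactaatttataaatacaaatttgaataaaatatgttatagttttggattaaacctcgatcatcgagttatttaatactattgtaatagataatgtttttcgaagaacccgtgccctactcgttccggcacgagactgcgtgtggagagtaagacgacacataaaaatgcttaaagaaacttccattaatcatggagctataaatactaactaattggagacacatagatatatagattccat

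BHLH38 held 1 E-box, a G-box that began 97 bases before the start. BHLH39 held 1, CATGTG, at 67 bases before the start. BHLH100 held 2, of which the one that began 91 bases before the start was a G-box. No E-box lay in the BHLH101 window. Among the other members, FIT, NAS2 and NAS4 held 1 E-box each, and IRT1, FRO2 and NAS1 none. For comparison, 55.3% of the 27443 upstream windows of this length held an E-box and 6.49% a G-box. A match describes the letters and is not a binding site. The BHLH38 and BHLH39 windows aligned over 176 bases with 81.8% identity, and that alignment covered both boxes. The transcripts of this pair were the most alike among the 10 and their relatives, at 83.6% identity, and no member had a near-identical copy (at least 95% identity over at least 50% of its length).

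**Figure D1:**
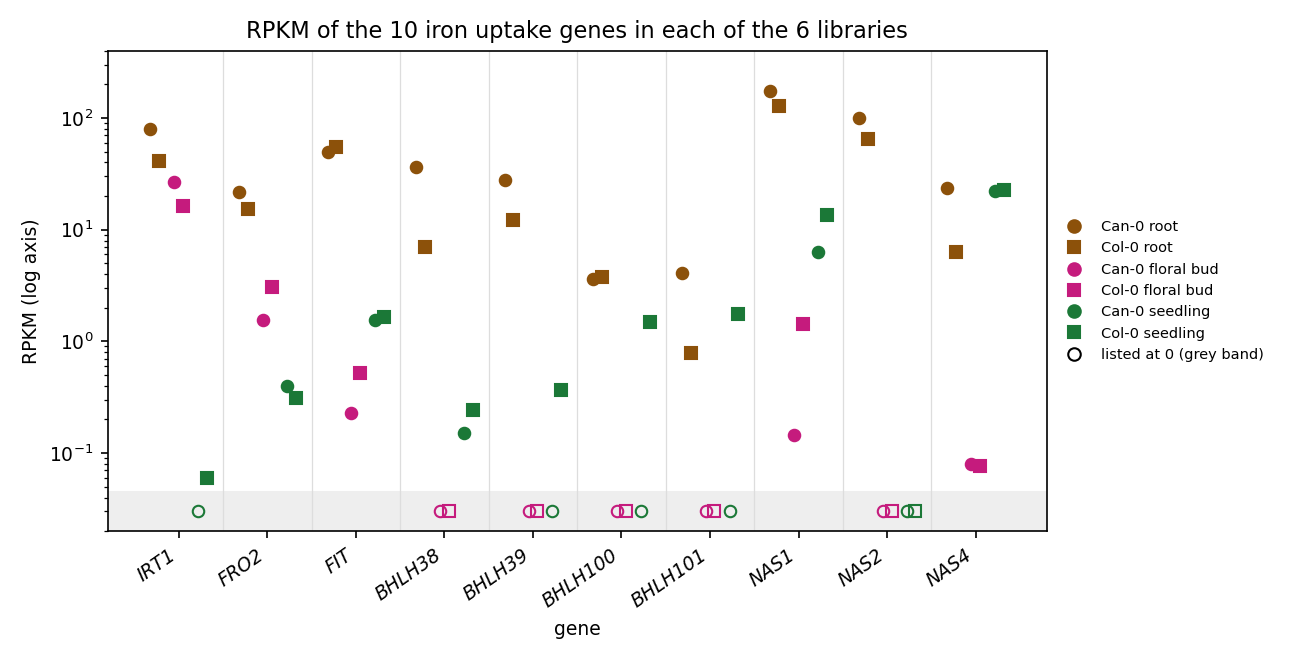
RPKM of the 10 genes in the 6 libraries, with 1 point per library on a log axis (circles Can-0, squares Col-0) and values of 0 drawn as open points in the grey band. IRT1, FRO2, FIT, NAS1 and NAS2 were highest in both root libraries, IRT1 was also at 26.6 and 16.3 RPKM in Can-0 and Col-0 bud, and NAS4 was at 22.3 and 22.9 RPKM in Can-0 and Col-0 seedling.

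Transcripts of the uptake genes IRT1 and FRO2 separated root from seedling, and IRT1 also stood high in the bud. IRT1 (AT4G19690, chr4:10707344-10709015, plus strand) stood at 80.1 RPKM in Can-0 root and 41.5 in Col-0 root, at 26.6 in Can-0 bud and 16.3 in Col-0 bud, and at 0 in Can-0 seedling and 0.0596 in Col-0 seedling. The tissues did not overlap: root was highest, bud next, and seedling at or below the level of 3 reads. In Can-0 the root was at least 854-fold and the bud at least 284-fold above that floor. FRO2 (AT1G01580, chr1:208995-213082, plus strand) stood at 21.8 and 15.2 RPKM in Can-0 and Col-0 root, 1.56 and 3.05 in Can-0 and Col-0 bud, and 0.400 and 0.312 in Can-0 and Col-0 seedling. Its order was the same, without overlap. Root over seedling was 54.5-fold in Can-0 and 48.9-fold in Col-0, root over bud 14.0-fold and 4.99-fold, and bud over seedling 3.90-fold and 9.79-fold. As a ratio, the Can-0 bud was thus nearer to seedling and the Col-0 bud nearer to root.

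The transporter and the reductase were therefore not in the same proportion in each tissue. IRT1 over FRO2, a ratio of RPKM, was 17.1 in Can-0 bud and 5.33 in Col-0 bud, against 3.68 in Can-0 root and 2.72 in Col-0 root. In seedling the Col-0 ratio was 0.191, on about 2 IRT1 reads. No test was made on these ratios.

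FIT (AT2G28160, chr2:12004658-12006276, plus strand, FRU in RefSeq) stood far higher in root than in the other tissues. It stood at 49.5 and 54.7 RPKM in Can-0 and Col-0 root, 0.231 and 0.521 in Can-0 and Col-0 bud, and 1.56 and 1.65 in Can-0 and Col-0 seedling. Here bud was lowest and seedling in the middle, without overlap. Root over seedling was 31.8-fold in Can-0 and 33.1-fold in Col-0, and root over bud 215-fold and 105-fold. The bud thus held IRT1 transcript with little FIT transcript: IRT1 over FIT was 115 in Can-0 bud and 31.2 in Col-0 bud, against 1.62 in Can-0 root and 0.759 in Col-0 root. The FIT values in bud rest on about 7 reads in Can-0 and 16 in Col-0, as estimated from the depth. The bud ratios and the root over bud folds are therefore approximate.

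The partners of FIT were listed at 0 in both bud libraries, all 4 of them. BHLH38 stood at 36.7 RPKM in Can-0 root and 7.07 in Col-0 root, against 0.151 in Can-0 seedling and 0.242 in Col-0 seedling. BHLH39 stood at 27.8 RPKM in Can-0 root and 12.2 in Col-0 root, against 0 in Can-0 seedling and 0.367 in Col-0 seedling. For both, every root library lay above every other library. Root over bud was at least 290.1-fold in Can-0 and at least 57.7-fold in Col-0 for BHLH38, and at least 247-fold and at least 112-fold for BHLH39.

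The other pair stood lower in root. BHLH100 stood at 3.59 and 3.80 RPKM in Can-0 and Col-0 root, against 0 in Can-0 seedling and 1.48 in Col-0 seedling. Root was above seedling without overlap. BHLH101 stood at 4.11 RPKM in Can-0 root and 0.794 in Col-0 root, against 0 in Can-0 seedling and 1.77 in Col-0 seedling. Its root and seedling values overlapped, since the Col-0 seedling library exceeded the Col-0 root library. Those Col-0 values rest on about 41 reads in seedling and 18 in root, as estimated from the depth. Summed, the 4 Ib genes made 72.1 RPKM in Can-0 root and 23.9 in Col-0 root, 0 in both buds, 0.151 in Can-0 seedling and 3.86 in Col-0 seedling. BHLH38 and BHLH39 gave 50.8% and 38.5% of the sum in Can-0 root, and 29.6% and 51.1% in Col-0 root. In Col-0 seedling BHLH101 gave 45.9% and BHLH100 38.3%.

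Overlapping neighbours touch a pair of these genes. BHLH38 shares 386 bases with PIP5K4 on the opposite strand, and BHLH101 shares 79 bases with GLU1 on the opposite strand. Whether the counting used strand is not given in the sources used here. PIP5K4 was at 24.7 and 22.4 RPKM in Can-0 and Col-0 bud, where BHLH38 was at 0. GLU1, a ferredoxin-dependent glutamate synthase, was at 206 and 265 RPKM in Can-0 and Col-0 seedling, where BHLH101 was at 0 and 1.77.

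The nicotianamine synthases divided by tissue. NAS1 (AT5G04950, chr5:1457641-1459039, minus strand) had the highest root level of the 10, at 173 RPKM in Can-0 root and 129 in Col-0 root. It stood at 0.145 and 1.44 RPKM in Can-0 and Col-0 bud and at 6.29 and 13.4 in Can-0 and Col-0 seedling. NAS2 (AT5G56080, chr5:22711141-22712441, minus strand) stood at 99.97 RPKM in Can-0 root and 65.2 in Col-0 root and was listed at 0 in the other 4 libraries. Its root level was at least 938-fold above seedling in Can-0 and at least 635-fold in Col-0.

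NAS4 (AT1G56430, chr1:21136835-21138277, plus strand) did not follow the other synthases. It stood at 23.5 RPKM in Can-0 root and 6.29 in Col-0 root, 0.0790 and 0.0765 in Can-0 and Col-0 bud, and 22.3 and 22.9 in Can-0 and Col-0 seedling. Root and seedling overlapped, and the bud values amount to about 2.5 reads each. NAS3 (AT1G09240), the fourth synthase of the family and not one of the 10, was listed at 0 in both roots. It stood at 2.39 and 6.72 RPKM in Can-0 and Col-0 bud and 5.10 and 3.78 in Can-0 and Col-0 seedling. By share of the family's summed RPKM, NAS1 made 58.3% and NAS2 33.8% in Can-0 root, and 64.4% and 32.5% in Col-0 root. NAS3 led in bud, with 91.4% in Can-0 and 81.6% in Col-0. NAS4 led in seedling, with 66.2% in Can-0 and 57.1% in Col-0.

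The tissues were tested over both accessions with limma on log2(RPKM + 1), where a difference near 0 RPKM depends on the 1 that was added and is not a fold. In root minus seedling, 8 of the 10 members were higher at an adjusted p under 0.05 and none was lower, beside 41% of 20830 tested genes higher and 18.5% lower. The median difference of the members was 3.87, against 0.33 over all tested genes. The members were chosen with earlier results of these data known. BHLH38, BHLH39 and NAS2 reached 1 RPKM in the root libraries only, so they were tested only because they were high there. The count describes these genes and is no test of the set. These limits also hold in root minus floral bud and for such genes of the other lists. NAS2 differed by 6.35 ± 0.22 (SE, adjusted p = 0.000124), IRT1 by 5.83 ± 0.28 (0.000214) and FIT by 4.35 ± 0.16 (0.000127). BHLH39 differed by 4.06 ± 0.41 (0.0016), NAS1 by 3.88 ± 0.41 (0.00182), BHLH38 by 3.87 ± 0.64 (0.00681) and FRO2 by 3.83 ± 0.31 (0.000865). BHLH100 gave the smallest called difference, 1.58 ± 0.38 (0.0221).

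The calls on 2 of those 8 were lost in fits that left out single libraries. Leaving out a bud library does not change a root minus seedling difference. It leaves fewer residual degrees of freedom, and the residual variance is then estimated without the accession difference in bud. Without Can-0 bud or without Col-0 bud, BHLH38 had an adjusted p of 0.0593 to 0.0597. BHLH100 lost its call when any 1 library other than Col-0 seedling was left out (0.0588 to 0.15). The remaining pair was not called: BHLH101 differed by 0.86 ± 0.72 (adjusted p = 0.355), with a 95% interval of −1.04 to 2.76, and NAS4 by −0.82 ± 0.50 (0.22), with an interval of −2.14 to 0.50. Without Can-0 root, NAS4 was lower in root, by −1.70 (adjusted p = 0.0185).

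In root minus floral bud, 9 of 10 members were higher and none lower, beside 27% of tested genes higher and 30.3% lower. The members' median was 3.88, against −0.02 over all tested genes. NAS1 differed by 6.49 ± 0.41 (adjusted p = 0.000386), NAS2 by 6.35 ± 0.22 (0.000111) and FIT by 5.28 ± 0.16 (8.43e-05). BHLH39 differed by 4.28 ± 0.41 (0.0013), BHLH38 by 4.12 ± 0.64 (0.00577), NAS4 by 3.63 ± 0.50 (0.00397) and FRO2 by 2.58 ± 0.31 (0.00272). BHLH100, at 2.23 ± 0.38 (0.00793), and IRT1, at 1.43 ± 0.28 (0.0117), gave the smallest called differences. BHLH101 differed by 1.60 ± 0.72 (0.121), with an interval of −0.30 to 3.50, and was not called, but it passed without either seedling library (0.0376 to 0.0385).

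That count fell most when a bud library was left out. Without Can-0 bud or without Col-0 bud, 4 members stayed called: FRO2, FIT, NAS1 and NAS2. Adjusted p was then 0.0845 to 0.122 for BHLH38, 0.0546 to 0.0621 for BHLH39 and 0.072 to 0.101 for NAS4. IRT1 and BHLH100 also lost their calls without Can-0 root, and over these 3 libraries adjusted p was 0.103 to 0.162 for IRT1 and 0.0769 to 0.122 for BHLH100.

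**Figure D2:**
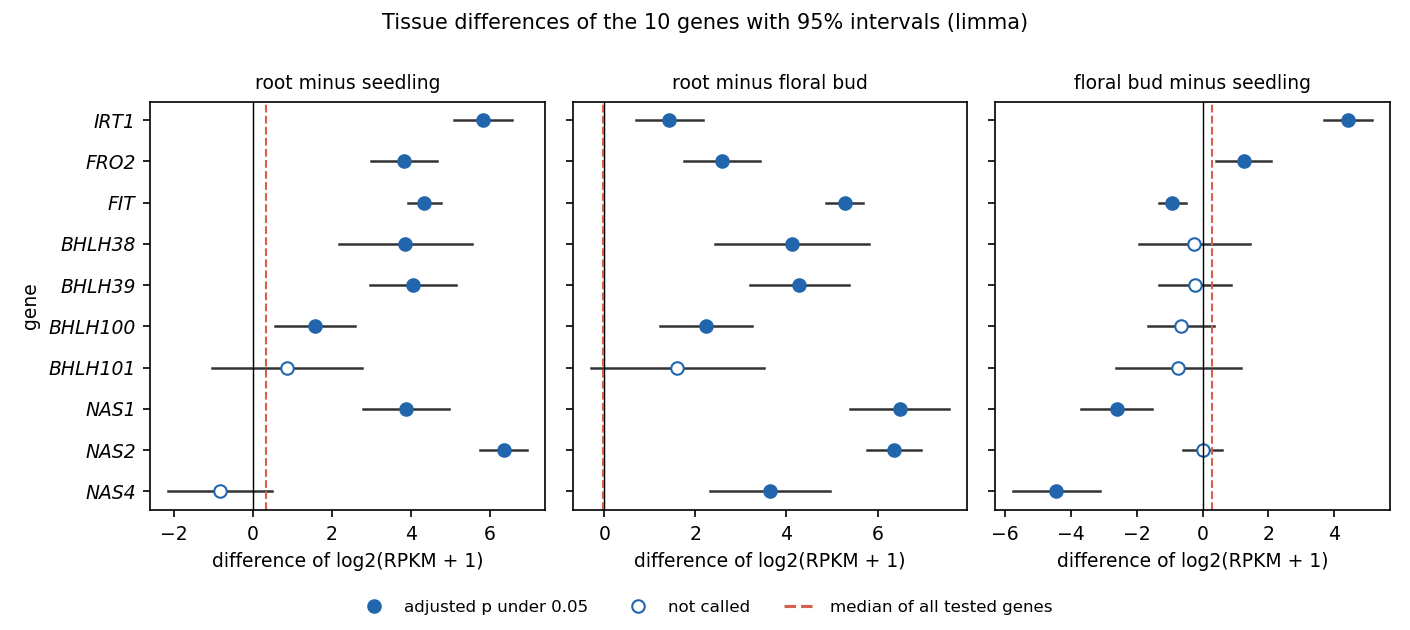
Differences in log2(RPKM + 1) for the 10 genes, root minus seedling, root minus floral bud and floral bud minus seedling, from limma over both accessions (points) with 95% intervals (lines), filled points for adjusted p under 0.05, and a dashed line at the median of all tested genes. Of the 10 genes, 8 were higher in root than in seedling and 9 higher in root than in bud, and bud minus seedling had 2 higher and 3 lower.

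Bud and seedling differed in both directions. In bud minus seedling, 2 members were higher and 3 lower, beside 32.8% of tested genes higher and 12% lower, with a median of −0.46 for the members and 0.27 over all tested genes. IRT1 was higher in bud by 4.41 ± 0.28 (adjusted p = 0.000871) and FRO2 by 1.25 ± 0.31 (0.0326). NAS4 was lower in bud by −4.45 ± 0.50 (0.00376), NAS1 by −2.62 ± 0.41 (0.00917) and FIT by −0.93 ± 0.16 (0.0109). BHLH38, BHLH39, BHLH100, BHLH101 and NAS2 were not called, but BHLH100 was lower in bud without Can-0 seedling, by −1.29 (adjusted p = 0.039). No member was called without Can-0 bud or without Col-0 bud, where adjusted p was 0.0562 to 0.0605 for IRT1, 0.0858 to 0.103 for NAS4 and 0.107 to 0.147 for NAS1. FRO2 lost its call whichever of the 6 libraries was left out (0.0519 to 0.157) and under both other scalings. FIT lost its call without either bud library or without Can-0 seedling (0.0609 to 0.107).

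Scaling shifted the background of these comparisons but reversed no call on a member. Quantile normalization moved the median root minus seedling difference of all genes to 0.08 and median-centring of the libraries moved it to 0.12. The split of all calls was 8549 higher and 3849 lower as deposited, 6430 and 4851 after quantile normalization and 6699 and 4520 after centring. In root minus bud it was 5623 and 6309 as deposited, and 7301 and 5447 or 6811 and 5640, with medians of 0.17 and 0.12. In bud minus seedling it was 6837 and 2499 as deposited, and 3730 and 5250 or 3988 and 4220, with medians of −0.15 and −0.07.

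Between the accessions over all tissues, none of the 10 members was called by limma in either direction, beside 0.403% of tested genes higher in Can-0 and 0.557% lower. At an unadjusted p under 0.05 no member passed either, against 3590 of 20830 genes. Adjusted p ranged from 0.349 for IRT1, at 0.51 ± 0.23, to 0.993 for BHLH101, at 0.01 ± 0.59. These estimates average over tissues, and BHLH101 differed by 1.51 in root and by −1.47 in seedling. The median of the members was 0.11 and that of all tested genes 0.02.

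Within single tissues some members differed between accessions, but with 1 library per group these are values without a test. How Can-0 reads were placed on the gene models was not given. In any comparison of accessions, mapping and transcript level therefore cannot be told apart. The same holds for lane in root and seedling and for run in bud. In root, where all 10 members had at least 1 RPKM in either library, 4 reached a difference of 1 on log2(RPKM + 1) with the higher value in Can-0 and none with the lower, beside 3% and 4.42% of 18973 genes with at least 1 RPKM in either root library. They were BHLH38 (36.7 RPKM in Can-0, 7.07 in Col-0), BHLH39 (27.8 and 12.2), BHLH101 (4.11 and 0.794) and NAS4 (23.5 and 6.29). The Can-0 over Col-0 ratios of RPKM were 5.19, 2.27, 5.17 and 3.74. IRT1 stood just under that limit, with a ratio of 1.93 and a difference of 0.93. FIT and BHLH100 had ratios of 0.906 and 0.945. In the same libraries the root markers summed to 170.2 RPKM in Can-0 and 209 in Col-0, and the photosynthesis markers to 22.8 and 54.5. Their part in the differences was not tested.

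In seedling, 2 of the 5 members with at least 1 RPKM in either library passed the limit, both with the lower value in Can-0, beside 4.78% of 17901 genes higher and 4.23% lower. BHLH100 and BHLH101 were listed at 0 in Can-0 seedling and stood at 1.48 and 1.77 RPKM in Col-0 seedling, at least 12.3-fold and at least 13.1-fold above the Can-0 floor of 3 reads. BHLH39, at 0 and 0.367 RPKM, did not reach 1 RPKM in either seedling library. NAS1 stood at 6.29 RPKM in Can-0 seedling and 13.4 in Col-0 seedling, and NAS4 at 22.3 and 22.9. In bud, 1 of 3 such members passed, beside 3.87% of 19634 genes higher and 3.63% lower: NAS1, at 0.145 RPKM in Can-0 bud and 1.44 in Col-0 bud. BHLH101 thus differed by 1.51 in root and −1.47 in seedling.

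**Figure D3:**
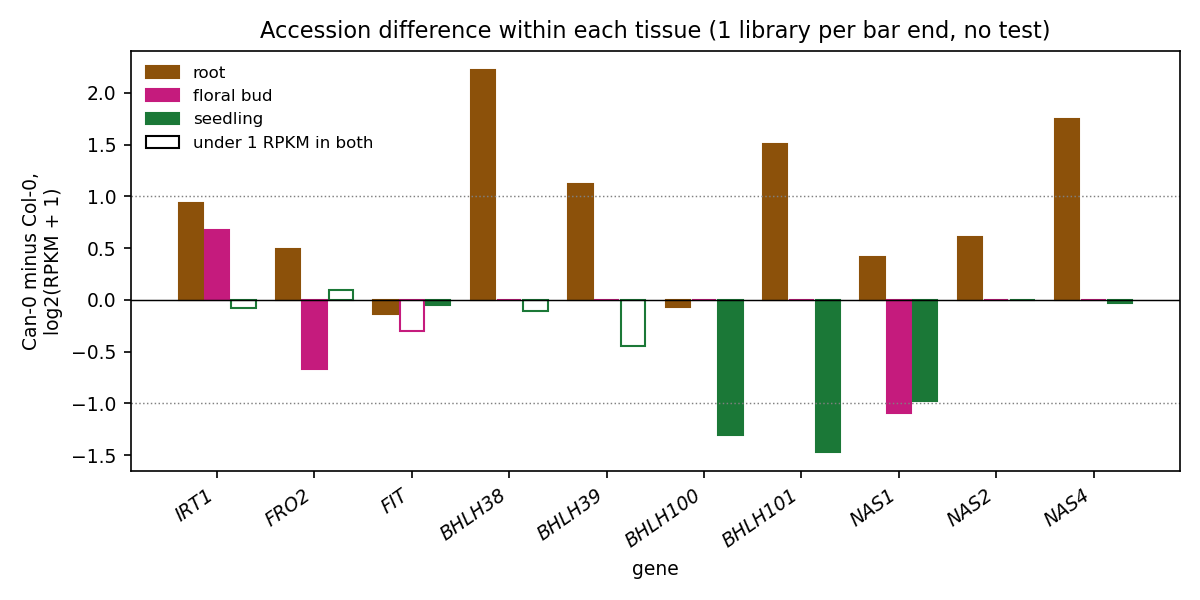
Can-0 minus Col-0 differences in log2(RPKM + 1) of the 10 genes within root, floral bud and seedling, drawn as bars from 1 library per accession and tissue, so there are no error bars; open bars are under 1 RPKM in both libraries and dotted lines mark 1 and −1. In root BHLH38, BHLH39, BHLH101 and NAS4 lie above 1, and in seedling BHLH100 and BHLH101 lie below −1.

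Coumarins are phenolics that roots secrete to reduce and chelate iron. Of 8 listed genes 7 were tested, and in root minus seedling 6 were higher and none lower, with a median of 2.76. Beside this list and those that follow, 41% of all tested genes were higher and 18.5% lower in root minus seedling. The shares were 27% and 30.3% in root minus bud, and 32.8% and 12% in bud minus seedling. Several list counts lie near these shares. For the other scalings, the splits of all genes given above apply. ABCG37 (AT3G53480), the exporter, stood at 136 and 96.3 RPKM in Can-0 and Col-0 root and at most 0.881 elsewhere, and was higher in root by 6.54 ± 0.22 (adjusted p = 0.00012). F6'H1 (AT3G13610), which makes the coumarin core, was higher by 5.52 ± 0.36 (0.000455), and CYP82C4 (AT4G31940), a coumarin hydroxylase, by 4.95 ± 0.20 (0.00015). AT3G12900, an oxygenase of the 2-oxoglutarate and iron family in RefSeq, was higher by 2.76 ± 0.80 (0.0384). That call was lost without either bud library or without Can-0 seedling (0.138 to 0.164). In root minus bud 6 were higher and 1, the beta-glucosidase BGLU42 (AT5G36890), was lower by −0.63 ± 0.14 (0.0167). BGLU42 lost that call whichever root or bud library was left out (0.0584 to 0.15). Without Can-0 bud or without Col-0 bud, 4 coumarin genes were called in root minus bud. In root minus seedling, quantile normalization or centring gave 5 higher and 1 lower, since AT3G12900 was no longer called (adjusted p = 0.0532 and 0.0516) and BGLU42, at −0.28 as deposited (0.141), was called at −0.47 and −0.49 (0.027 and 0.0263). None was called between bud and seedling.

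Proton pumps and the other reductases split by organ. Of 11 genes, 7 were higher and 3 lower in root minus seedling (median 2.03), 6 and 4 in root minus bud, and 3 and 1 in bud minus seedling. In root minus bud the count called in either direction was 6 without Col-0 bud, and in bud minus seedling it was 1 without either bud library and 2 without Can-0 seedling. Both other scalings gave 2 higher and 1 lower in bud minus seedling. AHA2 (AT4G30190, HA2 in RefSeq), the main root proton pump, stood at 1163 and 1046 RPKM in Can-0 and Col-0 root and between 72.1 and 134 elsewhere, and was higher in root than in seedling by 3.77 ± 0.22 (adjusted p = 0.000336). The reductases FRO6, FRO7 and FRO8, of leaf membranes, chloroplasts and mitochondria, ran the other way, by −4.65 ± 0.29 (0.000412), −4.17 ± 0.33 (0.000767) and −4.52 ± 0.15 (0.000116). FRO1 (AT1G01590), 1067 bases from FRO2, was listed at 0 in both roots and both seedlings. It stood at 1.60 RPKM in Can-0 bud and 3.19 in Col-0 bud and was higher in bud than in seedling by 1.72 ± 0.25 (0.00723). FRO1 reached 1 RPKM in the bud libraries only, so it was tested only because it was high there. That difference describes the gene and is no independent support. AHA7 (AT3G60330, HA7 in RefSeq), another proton pump, was higher in bud than in seedling by 3.59 ± 0.30 (0.00176), a call lost without either bud library (0.0643 to 0.0727).

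Other iron regulators, some of which act above the Ib genes, were also listed. Their median root minus seedling difference was 0.37, near the 0.33 of all tested genes. Of 13, 7 were higher and 1 lower in root minus seedling, 6 and 1 in root minus bud, and 1 and 4 in bud minus seedling. After quantile normalization these splits were 3 and 1, 9 and 0, and 0 and 6, and after centring 3 and 1, 9 and 1, and 0 and 5. The count in either direction was 3 to 5 in root minus seedling over the 6 fits that left out 1 library each. In root minus bud it was 3 without Col-0 bud, 2 without Can-0 bud and 4 without Can-0 root. In bud minus seedling it was 0 without either bud library, and 2 without either root library or without Col-0 seedling. BHLH115 (AT1G51070), a subgroup IVc bHLH that activates the Ib genes, stood at 180.4 and 205 RPKM in Can-0 and Col-0 root against 57.0 and 44.8 in Can-0 and Col-0 seedling, and was higher by 1.91 ± 0.16 (adjusted p = 0.000859). AT1G74770 and AT1G18910, zinc ion binding proteins in RefSeq, were higher in root than in seedling by 4.22 ± 0.20 (0.000214) and 2.62 ± 0.15 (0.000331). The lower gene, BHLH121 (AT3G19860), a bHLH that acts with subgroup IVc, differed by −0.39 ± 0.12 (0.0441) and lost the call whichever of the 6 libraries was left out (0.0919 to 0.176). BHLH121 was also the 1 gene of all these lists called between accessions, lower in Can-0 by −0.89 ± 0.10 (0.0474), with 6.42, 9.92 and 8.89 RPKM in Can-0 root, bud and seedling and 12.9, 19.5 and 16.9 in Col-0. That call was also lost whichever of the 6 libraries was left out (0.164 to 0.513).

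In that list, 3 genes that RefSeq leaves uncharacterised went the same way as BHLH101 between accessions in root and in seedling. AT1G47400 stood at 28.2 RPKM in Can-0 root and 6.48 in Col-0 root, 3.56 and 1.58 in Can-0 and Col-0 bud, and 17.8 and 24.4 in Can-0 and Col-0 seedling. AT1G47395 stood at 22.2 RPKM in Can-0 root and 7.77 in Col-0 root, 0.603 and 1.52 in Can-0 and Col-0 bud, and 9.91 and 25.8 in Can-0 and Col-0 seedling. AT2G30766 stood at 4.44 RPKM in Can-0 root and 0.294 in Col-0 root, 1.05 and 0.365 in Can-0 and Col-0 bud, and 7.11 and 23.3 in Can-0 and Col-0 seedling. In root Can-0 had the higher value of all 3, and in seedling Col-0 did. Over both accessions none was called in root minus seedling, where AT2G30766 differed by −2.40 ± 0.88 (adjusted p = 0.071), and all 3 were lower in bud than in seedling, by −2.67 to −3.09 (0.0218 to 0.046). Without Can-0 bud or without Col-0 bud those 3 calls were lost, as AT1G47395 and AT2G30766 also were without Col-0 seedling and AT2G30766 without either root library (0.0536 to 0.312 over these cases).

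Of the 8 proteins listed as partners or modifiers of FIT, 5 were tested, and 4 were higher and 1 lower in root minus seedling (median 0.64). In root minus bud 1 was higher and 2 lower (median −0.33), and in bud minus seedling 3 were higher and 1 lower. After quantile normalization these splits were 2 and 1, 1 and 0, and 3 and 2, and after centring 2 and 1, 1 and 0, and 3 and 1. In root minus seedling the count in either direction was 3 without either bud library, without Col-0 seedling or without Col-0 root. It was 1 in root minus bud without either root library or without Can-0 bud, and in bud minus seedling 2 without Col-0 bud and 1 without Can-0 bud. NAI1 (AT2G22770, a bHLH) stood at 112 and 107 RPKM in Can-0 and Col-0 root against 3.67 to 6.76 elsewhere, higher than in seedling by 3.89 ± 0.21 (adjusted p = 0.000292). The kinase CIPK11 (AT2G30360, SIP4 in RefSeq) was higher in root than in seedling by 2.12 ± 0.17 (0.00087) and in bud than in seedling by 2.71 ± 0.17 (0.000926). The lower gene was EIL1 (AT2G27050), a transcription factor of ethylene signalling, at −1.02 ± 0.20 (0.0114), lost without either bud library (0.0779 to 0.0783).

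**Figure D4:**
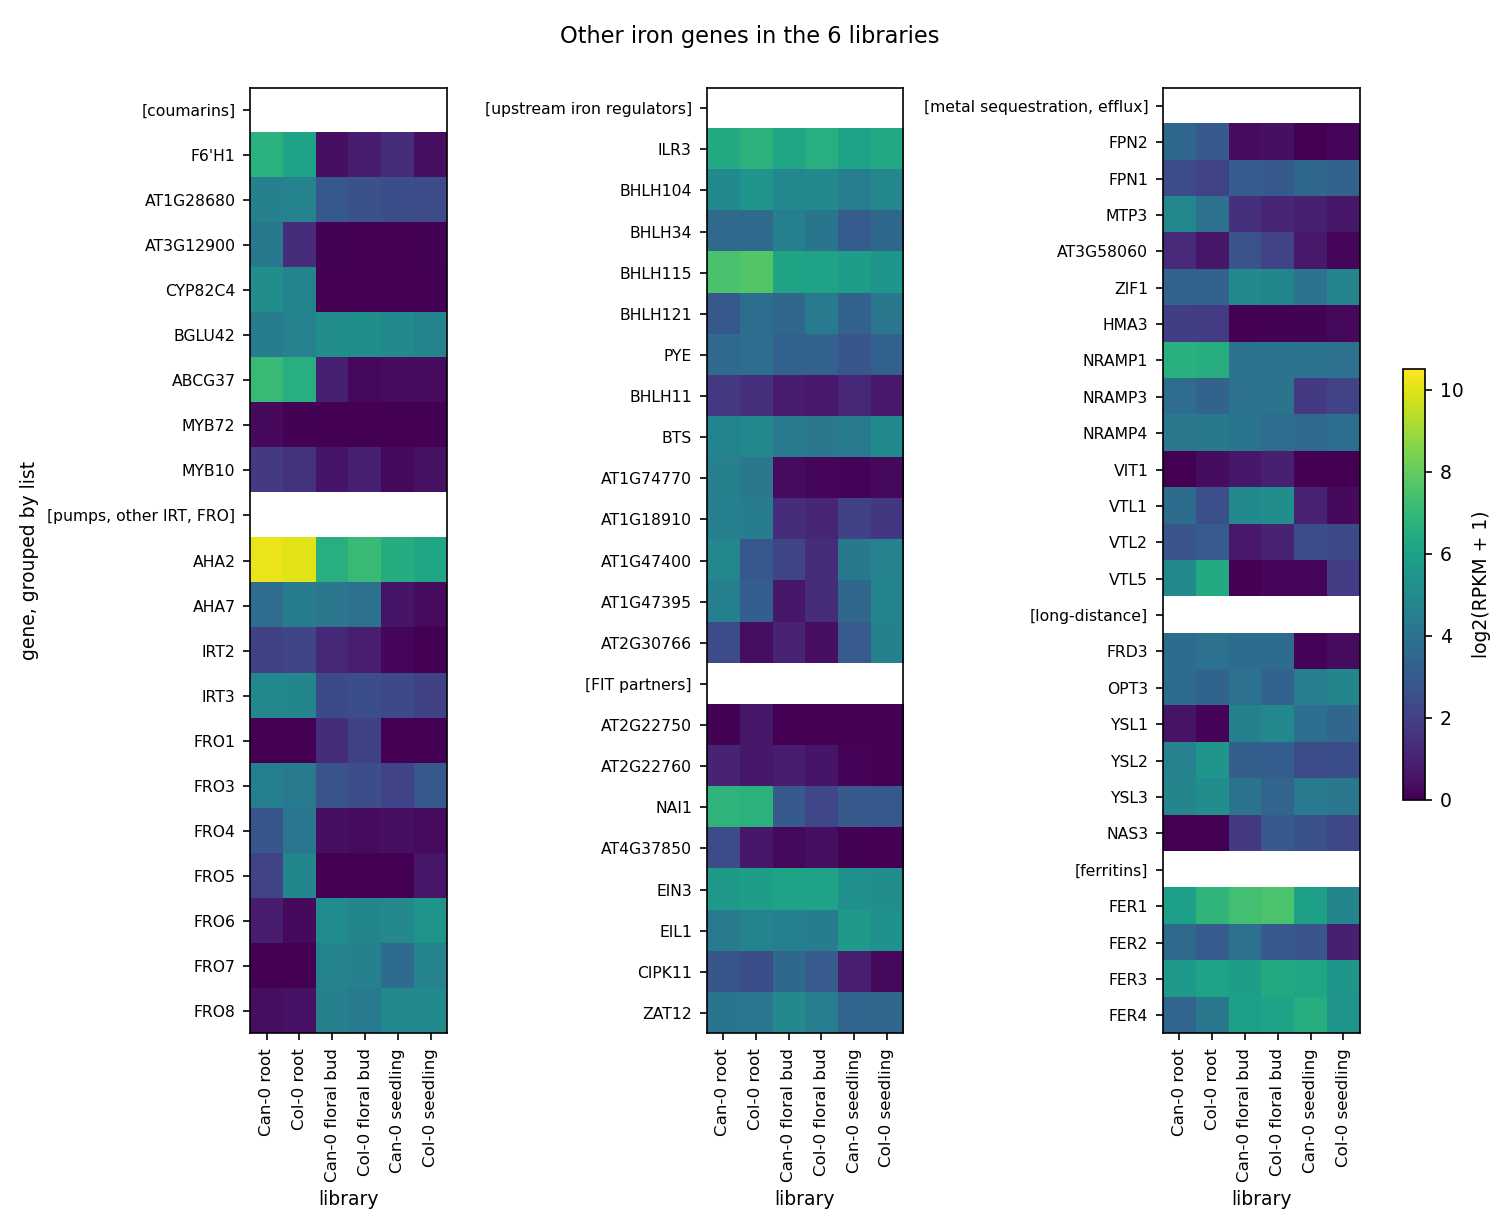
Levels of the other listed iron genes in the 6 libraries as log2(RPKM + 1), by list, with root libraries left of bud and seedling libraries and Can-0 left of Col-0 within each tissue. ABCG37, F6'H1 and CYP82C4 are high in both roots, FRO6, FRO7 and FRO8 in buds and seedlings, and FRD3 in roots and buds.

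Genes listed for metal transport or storage in root cells were called in both directions, as tested genes were in general. Of 13 listed 12 were tested, with 8 higher and 2 lower in root minus seedling (median 1.65), 6 and 4 in root minus bud, and 3 and 1 in bud minus seedling. That last split was 3 and 3 after quantile normalization and 3 and 2 after centring. In bud minus seedling 2 were called without either bud library. VTL5 (AT3G25190), a vacuolar iron transporter-like gene, was higher in root than in seedling by 4.69 ± 0.43 (adjusted p = 0.0012), and MTP3 (AT3G58810, MTPA2 in RefSeq), which moves zinc into the vacuole, by 3.62 ± 0.22 (0.0004). FPN2 (AT5G03570, IREG2 in RefSeq), a vacuolar metal transporter, was higher by 3.11 ± 0.25 (0.000815), and NRAMP1 (AT1G80830), a manganese and iron transporter, by 2.63 ± 0.11 (0.000156). FPN1 (AT2G38460, IREG1 in RefSeq), a metal exporter of vascular tissue, was lower by −1.17 ± 0.14 (0.00276) and ZIF1 (AT5G13740), which carries nicotianamine into the vacuole, by −1.01 ± 0.24 (0.0204). ZIF1 lost that call whichever root or bud library was left out (0.0819 to 0.155). VTL1 (AT1G21140) was higher in bud than in seedling by 4.43 ± 0.33 (0.00138).

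Genes of long-distance iron transport were called in both directions, as tested genes were in general. Of 6, 2 were higher and 3 lower in root minus seedling, 2 and 2 in root minus bud, and 2 and 1 in bud minus seedling. The splits in root minus bud and in bud minus seedling lay near the shares of all tested genes. Those shares were 27% higher and 30.3% lower in root minus bud, and 32.8% and 12% in bud minus seedling. Without Col-0 root 3 were called in root minus seedling, and without Col-0 root or either bud library 2 in root minus bud. In bud minus seedling 1 was called whichever root or bud library, or Col-0 seedling, was left out. Both other scalings gave 1 higher and 2 lower there. FRD3 (AT3G08040), which loads citrate into the xylem, stood at 11.9 and 14.5 RPKM in Can-0 and Col-0 root, 12.0 and 12.2 in Can-0 and Col-0 bud, and 0.0658 and 0.232 in Can-0 and Col-0 seedling. It was higher in root than in seedling by 3.63 ± 0.15 (adjusted p = 0.000168) and in bud than in seedling by 3.51 ± 0.15 (0.000363). YSL1 (AT4G24120), a carrier of metal and nicotianamine complexes, was lower in root than in seedling by −3.31 ± 0.24 (0.000612) and YSL2 (AT5G24380) higher by 2.58 ± 0.24 (0.00131). NAS3 was lower by −2.43 ± 0.41 (0.00727), a call lost without either root library (0.0583 to 0.0827).

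Ferritins, the plastid iron stores, gave 1 higher and 1 lower of 4 in root minus seedling, none and 1 in root minus bud, and 2 and none in bud minus seedling. FER2 (AT3G11050) was higher by 1.49 ± 0.33 (adjusted p = 0.0173) and FER4 (AT2G40300) lower by −2.18 ± 0.46 (0.0149). Both calls were lost without either bud library, FER2 also without Col-0 root and FER4 without Can-0 root (0.101 to 0.13). Without Can-0 seedling all 4 ferritins were called. Without either seedling library 2 were called in root minus bud, and none without either bud library or without Can-0 root. Without either bud library none was called in bud minus seedling. FER1 (AT5G01600) stood at 59.4 RPKM in Can-0 root and 114 in Col-0 root, 166 and 184 in Can-0 and Col-0 bud, and 62.0 and 26.2 in Can-0 and Col-0 seedling. It was higher in bud than in seedling by 2.08 ± 0.52 (0.0318), lost without either bud library (0.233 to 0.27).

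Within single tissues, some of these other genes also passed the difference of 1, and they are named because they passed it. Beside them, 3% of 18973 genes passed with the higher value in Can-0 root and 4.42% with the lower. These shares were 4.78% and 4.23% of 17901 genes in seedling, and 3.87% and 3.63% of 19634 genes in bud. In root Can-0 had the higher value for AT3G12900 (18.0 RPKM in Can-0, 1.52 in Col-0), AT1G47400, AT1G47395, AT2G30766, AT4G37850 (4.35 and 0.604) and VTL1 (11.9 and 4.91). In root Can-0 had the lower value for FRO4 (AT5G23980, 6.02 and 16.4), FRO5 (AT5G23990, 3.27 and 27.2) and VTL5 (31.5 and 85.1). In seedling Can-0 had the lower value for AT1G47395, AT2G30766, VTL5 (0.105 and 2.79) and FRO7 (11.6 and 25.1). The higher value in Can-0 seedling was in 3 of the 4 ferritins, FER1 (62.0 and 26.2), FER2 (5.89 and 0.903) and FER4 (91.3 and 42.3). In bud NAS3 alone passed, at 2.39 RPKM in Can-0 and 6.72 in Col-0.

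The genes nearest in pattern over the 6 libraries were found by the distance between mean-centred log2(RPKM + 1) profiles, given as a description. Nearest to IRT1 were AGP24 (distance 0.914), AGL42 (1.08) and GLYI4 (1.18), each high in root, intermediate in bud and at most 2.28 RPKM in seedling. Nearest to BHLH39 were AT5G55110 (0.401), AT2G44370 (0.456) and AT4G27400 (0.468), listed at 0 in both buds. Nearest to NAS4 were ACA2 (1.05), AT5G28630 (1.71) and AT1G47395 (1.72).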

How the data were processed

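The authors deposited RPKM, as the file headers state, with 1 table per library and no counts. Per the labels' protocols, fragmented mRNA was the input of a modified Illumina small RNA preparation. The submitters' processing notes name TAIR9 and TAIR10 but not what each served for. The aligner, the counting and its use of strand were not given in the sources used here, nor how reads of Can-0 were placed. Depth was estimated from the steps between small values. Estimated reads and the floor of 3 reads use RefSeq transcript lengths and cover counting error only.

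A linear model with a term for tissue and another for accession was fitted to log2(RPKM + 1) by limma 3.58.1 (R 4.3.3), with variances moderated along a trend and two-sided tests. Tested were the 20830 genes that reached 1 RPKM in 2 or more of the 6 libraries, and p-values were adjusted over all of them by Benjamini-Hochberg. All 10 members passed that filter. With 1 library per group, labelled biological replicate 1 throughout, the accessions stand in for replicates of a tissue, on 2 residual and 2.55 prior degrees of freedom. The p-values rest only on the spread that the tissue and accession terms leave. It holds variation of single libraries, which may be technical, and any accession effect that changes with tissue. With 1 library per group these cannot be told apart. Can-0 minus Col-0 was 1.51 in root and −1.47 in seedling for BHLH101, and 1.75 and −0.04 for NAS4. Such changes widen the error, so their missing root minus seedling calls do not show equal levels. The fit was tested on simulated data.

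RefSeq's annotation of TAIR10.1 gave symbols, positions and sequences, and 28009 of 28775 identifiers matched it. Transcripts were compared with BLAST+ 2.17.0. The members and the other gene lists were chosen with earlier results of these data known. All 10 members are named, and of each other list up to 4 genes with the largest root minus seedling difference, up to 2 in each further comparison, and called genes that went against their list. Alternatives were the pseudocount, filter, scaling, empirical Bayes settings, model terms, a minimum difference, and leaving out each library.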

Additional observations from a re-analysis of the deposited data

Results flagged for a closer look

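For 3 genes the Can-0 minus Col-0 difference in log2(RPKM + 1) ran in opposite directions in root and in seedling, each past 1 in size. BHLH101 differed by 1.51 in root and by −1.47 in seedling. AT1G47395 differed by 1.41 in root and by −1.30 in seedling, and AT2G30766 by 2.07 in root and by −1.59 in seedling. With 1 library per accession and tissue, the difference between the tissues was not tested.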

How the results depend on the processing

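Over the 10 members, no call reversed under any alternative. With no moderation of the variance, the members called were 4 in root minus seedling, 3 in root minus floral bud and 0 in floral bud minus seedling, against 8, 9 and 5 in the reported fit. Leaving out 1 library at a time gave 6 to 8 members in root minus seedling, 4 to 10 in root minus floral bud and 0 to 4 in floral bud minus seedling. The lowest counts came without either bud library, which leaves the bud with 1 library, assumed to vary like the other tissues. In root minus seedling the differences themselves stay the same without a bud library. The residual degrees of freedom are then fewer, and the residual variance is estimated without the accession difference in bud. BHLH100 in root minus seedling was also lost with a pseudocount of 0.1 and after quantile normalization. Within bud, 1 member passed the difference of 1, and 0 did after quantile normalization. No member was called between accessions under any alternative.

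Counts over all genes moved further. Root minus seedling called 12398 genes, against 6806 without moderation, 7856 with a minimum difference of 1 and 8026 without Col-0 root. Root minus bud called 11932, against 6401 without moderation, 7886 with that minimum, 7872 without Col-0 root, and 6139 and 5801 without Col-0 bud and Can-0 bud. Bud minus seedling called 9336, against 2492 without moderation, 5290 with that minimum, 6098 without Col-0 seedling, and 2131 and 2130 without Col-0 bud and Can-0 bud. The accession comparison called 200 genes, 80 with no filter, 68 at a mean of at least 5 RPKM, 16 without the tissue term, 0 without moderation and 0 to 51 without 1 library. The cause was not tested.

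For the other iron lists the same alternatives were added after the data were seen, and the counts that moved with scaling or a left-out library stand beside each list. NRAMP1 in bud minus seedling, at 0.07 and not called, was called at −0.38 after quantile normalization (adjusted p = 0.047), which moved the median of all genes to −0.15. No paired analysis was possible because the replicate number, 1 in every library, pairs nothing beyond the tissue and accession terms, which already set libraries of 1 accession or 1 tissue against each other. Without the accession term 8, 9 and 5 members were called in the 3 tissue comparisons. Depth limits the members listed at 0, each bounded at 3 reads.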
